A study of Homo sapiens with 8 samples.

Results

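NOLC1, RRP12 and PDCD11 are 3 genes of human chromosome 10 whose products work in the nucleolus on the making of ribosomes. They were chosen because each had a region, inside the gene or overlapping it, in a deposited list of bound RNA. By the labels, the protein that was precipitated is eIF4G2. These 3 genes stand among 861 genes with a region in either list, and among 93 named genes with a region on chromosome 10. They account for 2 of the 1224 regions of the control list and 5 of the 1986 regions of the overexpression list. Their presence in the lists is how they were chosen and is given as a description only.

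The cells used, IHCF, are human cardiac fibroblasts made immortal for culture. They had been infected with a lentiviral overexpression vector for full-length eIF4G2 or with a scramble control vector. For the bound RNA, lysates were precipitated with an antibody against eIF4G2. eIF4G2 is a translation initiation factor of the eIF4G family. The labels list 4 groups with 2 biological replicates each, 8 samples in all: total RNA of control cells, total RNA of overexpressing cells, and the bound RNA of both. The labels do not say whether the infected cells were a pool or single clones. Only 2 tables were used, which give 1 list of bound regions for the control cells and 1 for the overexpressing cells, and only the names of the tables tie them to a condition. The same names mention MOV10, an RNA helicase that the labels do not name, so the antibody behind the lists is taken from the labels.

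Ribosomes are assembled in the nucleolus, where a long precursor RNA is transcribed by RNA polymerase I, modified, cut and packed with proteins into a small (40S) and a large (60S) subunit. The early precursor of the small subunit, the small subunit processome, holds many non-ribosomal proteins that leave again before the subunit reaches the cytoplasm. The modifications are placed by small nucleolar ribonucleoproteins, which pair a guide RNA with a modifying enzyme. NOLC1 (also called NOPP140) is a heavily phosphorylated protein of nucleoli and Cajal bodies that binds these particles. PDCD11, the human counterpart of yeast Rrp5, is an RNA-binding processing factor needed for precursors of both subunits. RRP12 is a repeat protein that accompanies pre-ribosomal particles during maturation and export.

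The lists hold positions and widths only, with no read count, score or p-value and nothing for single replicates. The depth behind a region is therefore unknown, and differences between the lists could not be set against replicate spread. Missing from a list means that no region was placed there, not that the RNA was unbound. The tables give regions no strand. On chromosome 10 the control list had 29 regions covering 34.4 kb and the overexpression list 121 regions covering 151 kb, with mean widths of 1188 and 1252 bp. Every start, end and width on this chromosome fell on a grid with a step of 205 bp in both lists, so differences in width below 205 bp could not be seen. EIF4G2 itself, on chromosome 11, had no region in either list, and neither list had any region on that chromosome. None of 10 fibroblast markers had a region, nor any of 5 cardiomyocyte or 4 endothelial markers; of the fibroblast markers only PDGFRA and VIM lie on chromosomes 4, 10 or 18, which hold most regions, so the lists do not check the cell type.

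NOLC1 (ENSG00000166197, plus strand) had 1 control region and 2 overexpression regions, all at the end of the gene. In the tables, its longest transcript runs from 102152176 to 102163871 on chromosome 10 of GRCh38. The control region lay at 102163186 to 102164210 and was 1025 bp wide. It began 685 bp before the 3′ end of that transcript and ran 339 bp past it. The wider overexpression region lay at 102162776 to 102164415 (1640 bp), from 1095 bp before to 544 bp past the same end. It contained the whole control region and reached 410 bp further in the 5′ direction and 205 bp further in the 3′ direction.

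The second overexpression region of NOLC1 had no counterpart in the control list. It covered 102162161 to 102162365, a single grid step of 205 bp, and was separated from the wider region by 410 bp. It lay inside all 7 NOLC1 transcripts of the tables, 2 of which end shortly downstream of it, at 102162599 and 102162600. The wide regions overlapped the ends of the other 5 transcripts. Summed, NOLC1 had 1025 bp of control regions and 1845 bp of overexpression regions, a ratio of 1.80. Within the gene itself the lengths were 686 and 1301 bp, or 5.87% and 11.1% of its span of 11696 bp. No other gene of the tables lay under these regions, and the next RefSeq gene past the 3′ end, ELOVL3, starts 60895 bp away.

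PDCD11 (ENSG00000148843, plus strand, 103396626 to 103446294) had 1 region in each list, and both lay across its 3′ end. The control region covered 103445666 to 103447715 and was 2050 bp wide, the widest of the 29 control regions on chromosome 10. The overexpression region covered 103445461 to 103448740, 3280 bp, and only 5 of the 121 overexpression regions on the chromosome were wider. The overexpression region again held the whole control region, with 205 bp more on the 5′ side of PDCD11 and 1025 bp more on the 3′ side.

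The PDCD11 region cannot be given to PDCD11 alone, since it also lies over the 3′ end of CALHM2, a gene of the calcium homeostasis modulator family of membrane channels. CALHM2 (ENSG00000138172) is on the minus strand at 103446786 to 103452402, so the genes converge, with 491 bp between their ends. Of the control region, 629 bp (30.7%) lay in PDCD11, 491 bp (24.0%) between the genes and 930 bp (45.4%) in CALHM2. Of the overexpression region, 834 bp (25.4%) lay in PDCD11, the same 491 bp (15.0%) between the genes and 1955 bp (59.6%) in CALHM2. The overexpression region was 1230 bp longer, of which 205 bp fell in PDCD11 and 1025 bp (83.3%) in CALHM2. The control region covered 1.27% of PDCD11 and the overexpression region 1.68%, against 16.6% and 34.8% of the much shorter CALHM2. Neither list had a second region in either gene. A region without strand that spans the ends of converging genes does not tell which of the transcripts was bound.

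RRP12 (ENSG00000052749, minus strand) had 2 overexpression regions and no control region. Most of its listed transcripts end at 97356701 or 97356702, and the longest extends up to 97426074. The wider region lay at 97356756 to 97357575 (820 bp), with its near edge 55 bp inside the 3′ end of the longest transcript. The second region, at 97358396 to 97358600, was a single step of 205 bp and lay 820 bp further upstream in the transcript. Together they covered 1025 bp, 1.47% of the gene. Neither region ran past the end of the gene and no other gene of the tables lay under them. On chromosome 10, 65 of the 121 overexpression regions were wider than the 820 bp region of RRP12. By full region width RRP12 had the least covered length of the 3 genes in the overexpression list. Counting only the parts within the gene, its 1025 bp exceeded the 834 bp of PDCD11.

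**Figure D1:**
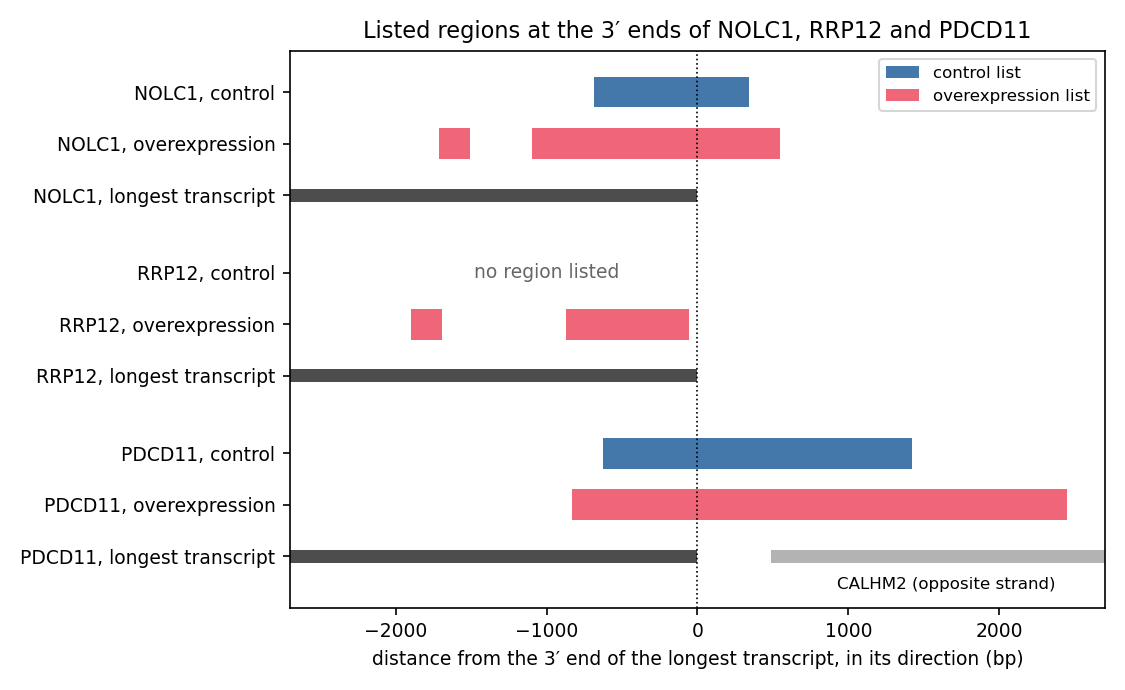
Regions of the control list (blue) and the overexpression list (red) around the 3′ ends of NOLC1, RRP12 and PDCD11, as distance in bp from the 3′ end of the longest transcript in the direction of that transcript (dark bar, cut off at the left edge). For NOLC1 and PDCD11 the control region lies inside an overexpression region, RRP12 has regions in the overexpression list only, and the PDCD11 regions run past a gap of 491 bp into CALHM2 (light bar, opposite strand).

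All 7 regions of the 3 genes touched the last 2 kb of the longest transcript or the sequence just past it, and 4 of them lay across the 3′ end itself. Midpoints lay between 86.2% and 102% of the length of the longest transcript. No region lay across the 5′ end of any listed transcript of its member gene. The closest was 9985 bp from the 5′ end of the longest transcript. Some shorter transcripts start nearer to the regions, at 102160730 for NOLC1 and 103444313 for PDCD11. Other genes of chromosome 10 often had regions near the 3′ end. There, 21 of 34 pairs of a region and a gene in the control list (61.8%, 95% Wilson interval 45.0 to 76.1) and 67 of 148 in the overexpression list (45.3%, 37.5 to 53.3) lay within 2 kb of the 3′ end. The 3′ end was covered in 6 of 34 (17.6%, 8.35 to 33.5) and 38 of 148 pairs (25.7%, 19.3 to 33.3). These intervals cover counting error only and treat pairs as independent, although regions over several genes enter more than once. The 2 kb limit was chosen after the positions were seen.

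The enclosure of the control region within a longer overexpression region was not limited to NOLC1 and PDCD11. On chromosome 10, 12 of the 29 control regions overlapped an overexpression region, and all 12 lay within it, 10 of 10 without those of NOLC1 and PDCD11. The overexpression region was longer by 205 to 3075 bp, with a median of 615 bp, which is also the value for NOLC1. Of the 24 edges, 12 were moved outwards by exactly 205 bp and 3 not at all. The width ratio of 1.60 for the regions of NOLC1 and PDCD11 lies above the median of 1.42 for the 12 regions and far below the 4.75 of MMS19, a DNA repair and iron-sulfur assembly factor. On chromosome 4 only 75 of 302 overlapping control regions (24.8%, 20.3 to 30.0) lay within a longer overexpression region, while 112 contained one whole, 112 were offset from it and 3 had identical ends. On chromosome 4 the control list was the longer of the lists, with 1185 regions against 491; on chromosome 10 it had 29 against 121. The 2 chromosomes differed in how often control regions were enclosed and in which list had more regions. Whether these differences are linked, and whether either depends on depth, was not tested.

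**Figure D2:**
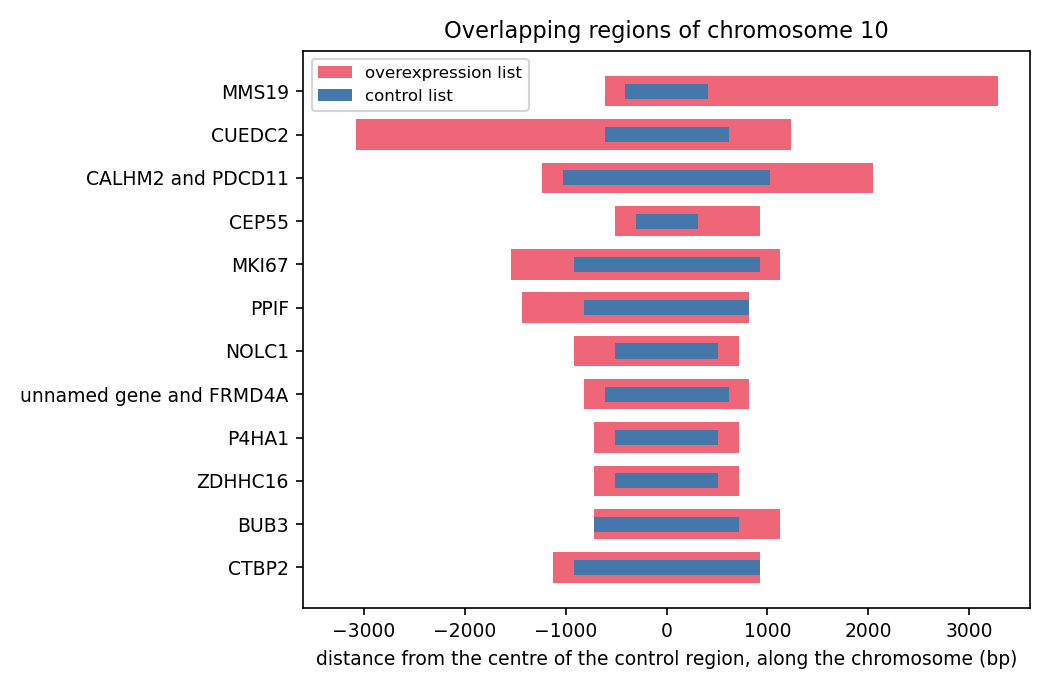
The 12 control regions of chromosome 10 that overlap an overexpression region (blue), drawn on that region (red), as distance in bp from the centre of the control region along the chromosome, ordered by extra length. Each blue bar lies inside its red bar; NOLC1 gains 615 bp and the region over CALHM2 and PDCD11 gains 1230 bp.

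Regions were rare among the coding genes of chromosome 10. The control list had them for 30 of 734 genes (4.09%), the overexpression list for 67 (9.13%) and both for 14 (1.91%). NOLC1 and PDCD11 belong to those 14, and RRP12 to the overexpression list only. Among 14 named genes of the chromosome with regions in both lists, CALHM2 included, the ratio of covered length ran from 1.00 for the chemokine gene CXCL12 to 4.75 for MMS19, with a median of 1.60. NOLC1, at 1.80, had 5 of these genes above it, and PDCD11, at 1.60, had 6. Of the 14 genes, 13 were longer in the overexpression list. Without NOLC1, PDCD11 and CALHM2 these were 10 of 11, with a median ratio of 1.60. The longer length in the overexpression list therefore does not set NOLC1 and PDCD11 apart. The covered length of the chromosome was itself 4.40 times as long in that list. Divided by these totals, the ratios became 0.409 for NOLC1 and 0.364 for PDCD11. This division lowers all genes' ratios alike, so it shows no direction for single genes.

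**Figure D3:**
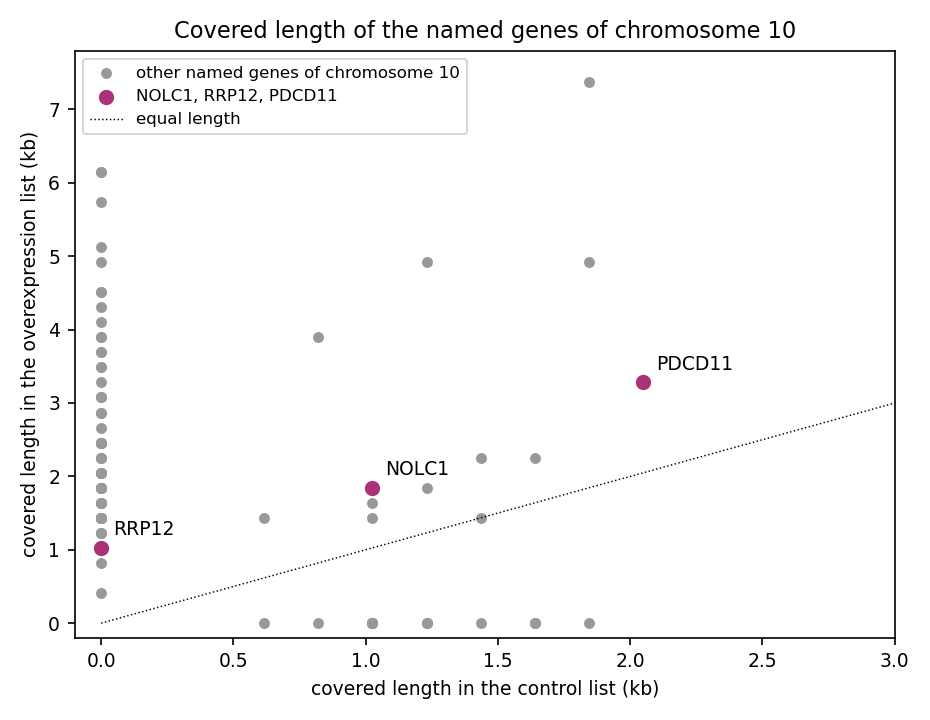
Covered length in kb of each named gene of chromosome 10 in the control list (x axis) and the overexpression list (y axis), with the dotted line at equal length. NOLC1 (1025 and 1845 bp) and PDCD11 (2050 and 3280 bp, the same point as CALHM2) lie above the line, and RRP12 (0 and 1025 bp) stands low in the column of genes found in the overexpression list only.

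By the pair of covered lengths over the 2 lists, the genes most like NOLC1 were the palmitoyltransferase gene ZDHHC16 (1025 and 1640 bp in the control and overexpression lists), FRMD4A (1230 and 1845 bp, with a region also over an unnamed gene) and the collagen prolyl hydroxylase subunit gene P4HA1 (1025 and 1435 bp). Their distances on the log2(bp + 1) scale were 0.17, 0.26 and 0.36. CALHM2, which has the lengths of PDCD11 because it has the same regions, was left out by the rule. For PDCD11 the nearest genes that share no region with it were the transcriptional corepressor gene CTBP2 (1845 and 4920 bp, distance 0.60), the mitochondrial cyclophilin gene PPIF (1640 and 2255 bp, 0.63) and the spindle checkpoint gene BUB3 (1435 and 2255 bp, 0.75). RRP12 had the same lengths as ARL3, a small GTPase of cilia (0 and 1025 bp). It was followed at equal distance (0.26) by ECHS1, PPP2R2D and the pseudogene RPL13AP5, each with 0 and 1230 bp. Lengths come in whole grid steps, so ties of this kind are common.

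The 3 genes lie within 6.09 Mb, RRP12 lowest, then NOLC1 4.73 Mb further on and PDCD11 another 1.23 Mb away. This stretch held 6 of the 29 control regions and 21 of the 121 overexpression regions of chromosome 10. Its limits are set by the 3 genes, and the counts include regions of these genes, which were chosen for having them. Of its 89 other coding genes, 4 were in the control list (4.49%, 95% Wilson interval 1.76 to 11.0) and 13 were in the overexpression list (14.6%, 8.74 to 23.4), intervals that include the 4.09% and 9.13% of the whole chromosome. The nearest listed neighbours of RRP12 were ZDHHC16, 20.1 kb away with regions in both lists, and LCOR, 360 kb away on the other side with 3 regions in the overexpression list only. NOLC1 lay between HPS6, a subunit of a lysosome biogenesis complex, and NFKB2, an NF-kappaB subunit, both listed for the overexpression list only. PDCD11 lay between the readthrough gene BORCS7-ASMT, with 2 regions in the overexpression list, and CALHM2.

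Further genes of ribosome biogenesis were taken from 5 lists by role, 178 genes with the 3 above. The control list had regions for 11 of the 178 (6.18%) and the overexpression list for 13 (7.30%), with 7 genes in both, against 1.81% and 2.31% of all 20056 coding genes. These counts include the 3 genes chosen for having regions; without them they were 9 and 10 of 175 (5.14% and 5.71%). Of the 178 genes, 155 lie outside chromosomes 4, 10 and 18, and regions were found for 2 of these 155. By role, of 56 factors of the small subunit 3 were in the control list and 5 were in the overexpression list. The small nucleolar ribonucleoprotein genes had 3 of 18 in each. The factors of the large subunit had 4 and 3 of 63, and the exosome and RNase MRP genes 1 and 2 of 23. None of 18 genes for RNA polymerase I and nucleolar chaperones had a region in either list. The counts by role include the 3 chosen genes. NOLC1 is among the small nucleolar ribonucleoprotein genes counted in both lists. PDCD11 is among the small subunit factors counted in both lists, and RRP12 among those of the overexpression list. Shares matched to the chromosomes of the genes were not computed by role.

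On chromosome 10, 10 further genes of these lists were looked up. In the overexpression list 2 of the 10 had a region, against 9.13% of coding genes there, and in the control list none had, against 4.09%. BCCIP, a factor of large subunit assembly that also binds BRCA2, had 3 regions that summed to 4510 bp, all of them also over the helicase gene DHX32. RPP38, a protein subunit of RNase P and RNase MRP, had 1 region of 1435 bp, also over NMT2. The other 8 had none: the GTPase genes BMS1 and GTPBP4, the helicases DDX21 and DDX50, NOC3L, NPM3, EXOSC1 and RPP30. NOLC1 and RRP12 were therefore the only ones among the 13 biogenesis genes of chromosome 10 with a region that lay over no other gene of the tables.

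On chromosome 4 the biogenesis genes were split between the lists in another way than NOLC1, RRP12 and PDCD11. The control list held all 9 of them, against 43.1% of the coding genes of the chromosome, and the overexpression list held 5 of 9, against 27.3%. None of the 9 was in the overexpression list only. Few genes of the chromosome were, since 185 of the 210 coding genes of that list were also in the control list. NOP14, a core protein of the small subunit processome, had 6960 bp of control and 2550 bp of overexpression regions, all of them also over its antisense transcript NOP14-AS1. LYAR, a nucleolar zinc finger protein, had 8 regions of the control list (7305 bp) and none of the overexpression list. AFG2A, an ATPase of large subunit maturation that the tables call SPATA5, had 4040 and 2595 bp. EXOSC9, a subunit of the exosome, had 4630 and 490 bp, and its widest control region also lies over CCNA2.

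Of the 7 biogenesis genes in both lists, 5 had regions that overlapped between the lists, NOLC1 and PDCD11 among them. The others with an overlap were NOP14 (1855 bp shared), AFG2A (2555 bp) and NAF1 (1260 bp). The region of NAF1 and a region of AFG2A each began at the same position in both lists. The regions of SDAD1 and EXOSC9 shared no base between the lists. The share of overlap over all genes in both lists was not computed, so the 5 of 7 has no background. By region, 302 of 1185 control regions of chromosome 4 and 12 of 29 of chromosome 10 overlapped an overexpression region. NAF1, an assembly factor of the H/ACA particles, and the remaining genes were named after their values were seen. They are SDAD1 (615 and 2570 bp), UTP3 (2580 bp), TMA16 (1430 bp) and the H/ACA protein gene GAR1 (1225 bp), the last 3 in the control list only. RIOK3 on chromosome 18 (2295 bp) and, on chromosome X, TSR2 (3800 bp) and the pseudouridine synthase gene DKC1 (2620 bp) were in the overexpression list only. All 1339 regions of chromosome 18 came from the overexpression list, with 161 of 270 coding genes there (59.6%) against 0 in the control list. The absence of RIOK3 from the control list therefore does not set it apart from other genes of its chromosome. For chromosome X no share of coding genes was computed, so the same absence of TSR2 and DKC1 has no background. The regions of TSR2 and DKC1 also lie over FGD1 and MPP1, and 1 of the 2 control regions of GAR1 also lies over GAR1-DT. Expression of these genes was not examined, and its part in which of them were listed was not tested.

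**Figure D4:**
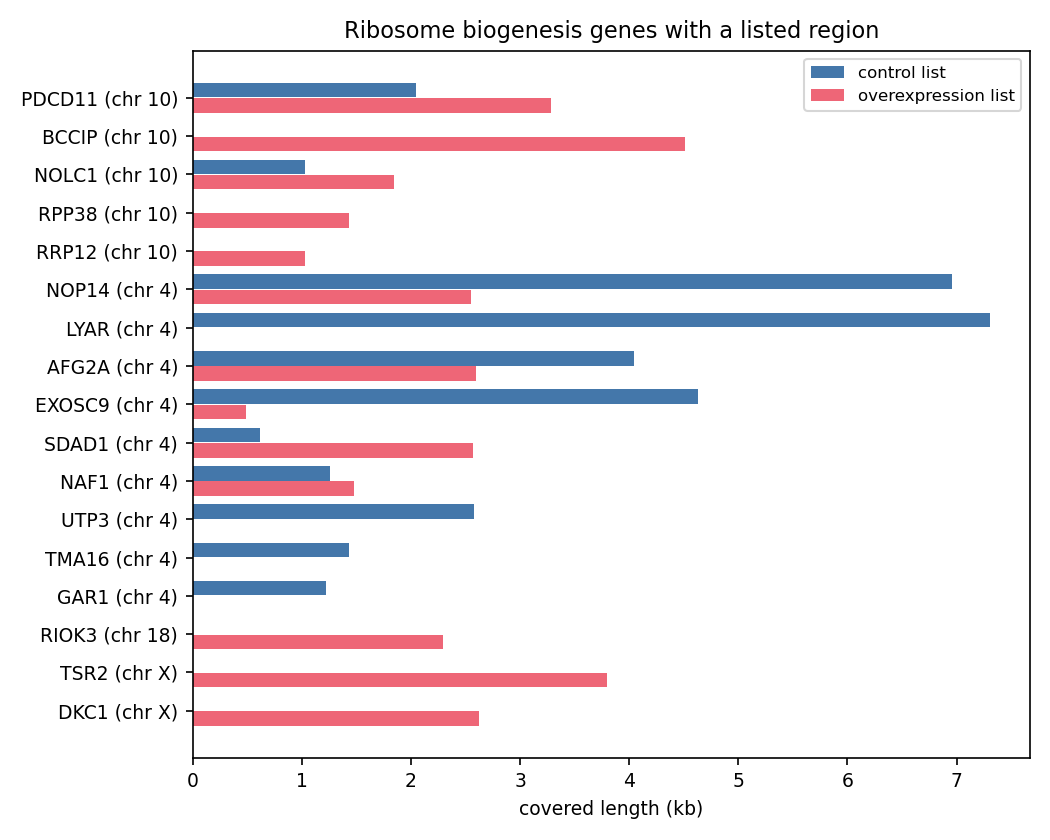
Covered length in kb of the 17 ribosome biogenesis genes with a region, in the control list (blue) and the overexpression list (red), grouped by chromosome. The 5 genes of chromosome 10 have the longer bar or the only bar in the overexpression list, while on chromosome 4 all 9 have a control bar, which is the longer or the only one except for SDAD1 and NAF1.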

How the data were processed

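RIP-seq was done on 8 libraries of IHCF cells, and reads were handled with bcl2fastq 2.19.0, Trimmomatic 0.36 and HISAT2 2.1.0 on GRCh38, per the submitters' processing notes. Which program called the regions, at what cut-off, against which background and from pooled or single replicates is not given in the sources used here. Both deposited tables hold 1-based positions, widths and distances in bp without normalization, per the file headers; widths set side by side as a ratio in the report were computed here, since the authors deposited no such ratio. A region counted for a gene if it lay inside it or overlapped it, 1 entry per region and gene. Covered length is the summed full width. Lists were compared at an overlap of at least 1 bp. Background shares used RefSeq coding genes of GRCh38.p14; of 732 gene names 711 matched by symbol and 14 by an older symbol. The planned test on counts was not run because the tables hold no count.

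The members, gene lists and rules were chosen with earlier results of these data known. Named genes were the 3 members, genes sharing their regions, EIF4G2, biogenesis genes of chromosome 10 with a region, the 4 others with the most covered length, the 3 most alike by covered length and the nearest listed neighbours. The marker lists were those for fibroblasts, cardiomyocytes and endothelial cells. Overlap counting was tested on simulated data, where 90 of 90 planted overlaps were found. Python 3.11.15, pandas 2.3.3, numpy 2.4.6, scipy 1.17.1 and matplotlib 3.10.9 were used. No base sequence of the regions is printed, since no genome was used here.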

Additional observations from a re-analysis of the deposited data

How the results depend on the processing

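No paired analysis was possible because the tables hold no value per replicate, so neither the replicate block nor leaving out a replicate nor a count test could be run. Scaled to the covered length of chromosome 10, the ratio of overexpression to control turned to 0.409 for NOLC1 and 0.364 for PDCD11, by the construction of the scaling, which lowers all genes' ratios alike. With lengths clipped to the gene the ratios were 1.90 and 1.33, from 686 and 1301 bp for NOLC1 and 629 and 834 bp for PDCD11. With only the widest region, or only regions of at least 400 bp, NOLC1 had 1640 bp in the overexpression list (ratio 1.60) and RRP12 820 bp. With regions of at least 400 bp, or merged up to 1000 bp apart, NOLC1 and RRP12 each had 1 region there. With regions over 1 gene only, PDCD11 had 0 regions and 0 bp in both lists. At this setting the control list held 2.997% of chromosome 10 coding genes and the overexpression list 5.59%. Of the 178 biogenesis genes of all chromosomes, the control list then held 9 and the overexpression list 7. In the main setting they held 11 and 13, so the order of the lists turned around. The share over coding genes of all chromosomes was not computed at this setting. The number of overlapping member regions was 2 in each list at all 3 other overlap settings. Depth is unknown, so a missing region sets no limit on binding.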
